A study of Mus musculus with 6 samples.

Results

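The 10 genes described here encode proteins that set how strongly G proteins signal in the suprachiasmatic nucleus (SCN), the hypothalamic nucleus that holds the central circadian clock. They are Rgs16, 7 other genes of regulators of G-protein signalling (Rgs2, Rgs4, Rgs7, Rgs8, Rgs9, Rgs10 and Rgs17), the orphan receptor gene Gpr176 and the small GTPase gene Rasd1. They were taken by gene symbol from the 17645 genes listed in the deposited tables, and all 10 were found. The list was chosen by measured values of the same comparison, since the difference of Rgs16 in CPM and FPKM between these libraries was already known. For that reason the differences of the 10 genes between the groups are given as a description, and no conclusion is drawn from a test of them.

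RNA was sequenced from SCN punches of female C57BL/6 mice killed in the dark at 12 to 14 hours of zeitgeber time, the clock that starts when the lights come on. There were 3 libraries labelled r1r2V (replicates 1, 4 and 5), read as the knockout of the REV-ERB genes Nr1d1 and Nr1d2 in GABAergic neurons, and 3 labelled V (replicates 2, 3 and 4), read as its control. Each library held RNA pooled from 2 SCN. The sources used here do not give the age of the mice, the Cre driver, the removed exons or the meaning of V, and do not say how the pools were drawn from animals. A p-value then measures only the spread between these pools. As the deletion was aimed at GABAergic neurons, other cells of the punch were not targeted. In bulk tissue, fewer cells of a type and less RNA per cell cannot be told apart.

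A G-protein-coupled receptor switches its G protein on by loading the alpha subunit with GTP. RGS proteins speed up the hydrolysis of that GTP and so end the signal. In mice, RGS16 acts on inhibitory Gi in dorsomedial SCN neurons, where its daily rhythm shapes that of cyclic AMP. GPR176, a receptor enriched in the SCN, acts through Gz, another inhibitory G protein, and RASD1 (Dexras1) takes part in the clock's response to light.

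The expected counts of a library summed to between 17040698 and 17566335 in the libraries labelled r1r2V and between 15729603 and 17780928 in those labelled V. Levels are given in CPM, counts divided by library size (scaled by TMM, the trimmed mean method of edgeR) and set to the same depth. Nr1d1 was at 196, 157 and 147 CPM in the libraries labelled r1r2V and at 56.7, 62.5 and 57.0 CPM in those labelled V, and Nr1d2 was at 229, 275 and 222 CPM against 177, 179 and 168 CPM. Neither targeted transcript was lower under the r1r2V label, so every direction here rests on the titles of the libraries. SCN markers were present in all 6 libraries, and none of 8 (Six6, Lhx1, Avp, Vip, Nms, Prok2, Rorb and Six3) was at 0. Their summed level was 357, 419 and 516 CPM in the libraries labelled r1r2V and 473, 477 and 553 CPM in those labelled V. Replicate 5 of r1r2V was below every other library in Vip (11.4 CPM), Prok2 (1.75 CPM), Lhx1 (2.62 CPM), Nms (5.25 CPM) and Rorb (38.2 CPM). It was above every other library in Avp, at 384 CPM, which made up most of its summed SCN marker level. Its summed level of 6 meningeal fibroblast markers, 86.2 CPM, was also the highest of the 6 libraries, which otherwise ran from 42.8 to 56.4 CPM.

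Rgs16 and Rgs4 were the 2 genes of the 10 that were higher in each library labelled r1r2V than in any labelled V. The 250 bases before their start sites are shown for that reason, though 6.87% of all genes tested were likewise higher. Both lie on chromosome 1, and the sequences are those of RefSeq on GRCm38.p6, printed 5′ to 3′ on the strand of the gene.
Rgs16, chr1:153740103-153740352, plus strand: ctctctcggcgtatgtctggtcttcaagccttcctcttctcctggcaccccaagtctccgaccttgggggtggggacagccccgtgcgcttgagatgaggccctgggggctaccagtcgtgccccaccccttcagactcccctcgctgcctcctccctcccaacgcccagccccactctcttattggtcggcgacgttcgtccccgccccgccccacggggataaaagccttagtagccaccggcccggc
Rgs4, chr1:169747643-169747892, minus strand: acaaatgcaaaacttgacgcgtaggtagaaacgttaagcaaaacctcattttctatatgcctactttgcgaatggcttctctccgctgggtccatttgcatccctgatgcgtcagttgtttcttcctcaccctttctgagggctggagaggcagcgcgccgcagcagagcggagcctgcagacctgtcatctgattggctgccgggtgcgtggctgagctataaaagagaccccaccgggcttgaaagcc

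Windows of 300 bases, from 250 before to 50 after a start site, were on hand for 9 of the 10 genes, 11 windows in all, with none for Rasd1. They were searched on both strands for the E-box CACGTG, the D-box letters TTATGTAA and TTACGTAA, the cyclic AMP response element TGACGTCA and the REV-ERB and ROR core motif AGGTCA. Among all 32851 windows of the table, 7.15% held the E-box, 0.938% and 0.119% the D-box letters, 1.79% the cyclic AMP element and 16.3% the core motif. None of the 5 was in the Rgs16 or the Rgs4 window. The E-box was in the window of Rgs7 and the core motif in 1 window of Rgs8, and both stretches are shown with the motif in capitals because they were the only matches among the 11 windows. Both stretches lie inside the span given here for their gene, before a start site that is not its first. These letters are a description of the windows, not of binding.
Rgs7, chr1:175492557-175492586, minus strand: gcgtccctgtccCACGTGactgtcgcctcc
Rgs8, chr1:153665525-153665554, plus strand: aggatgcatgccAGGTCAgctctgcttggg

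Rgs16 (gene 19734) is found at chr1:153740353-153745468, plus strand, on GRCm38. It had 116, 114 and 71.8 CPM in the libraries labelled r1r2V, against 57.5, 53.7 and 56.1 CPM in those labelled V. The lowest library labelled r1r2V was replicate 5, and it was still above the highest labelled V. The means were 101 ± 24.9 CPM under r1r2V and 55.8 ± 1.92 CPM under V (SD, n = 3 each), a fitted difference of 1.80-fold (log2 fold change 0.85, standard error 0.154). On the log2 scale, replicates 1, 4 and 5 of r1r2V lay 1.06, 1.03 and 0.36 above the V mean. Without replicate 5 the log2 fold change was 1.04, and leaving out any other single library gave values from 0.74 to 0.87.

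**Figure D1:**
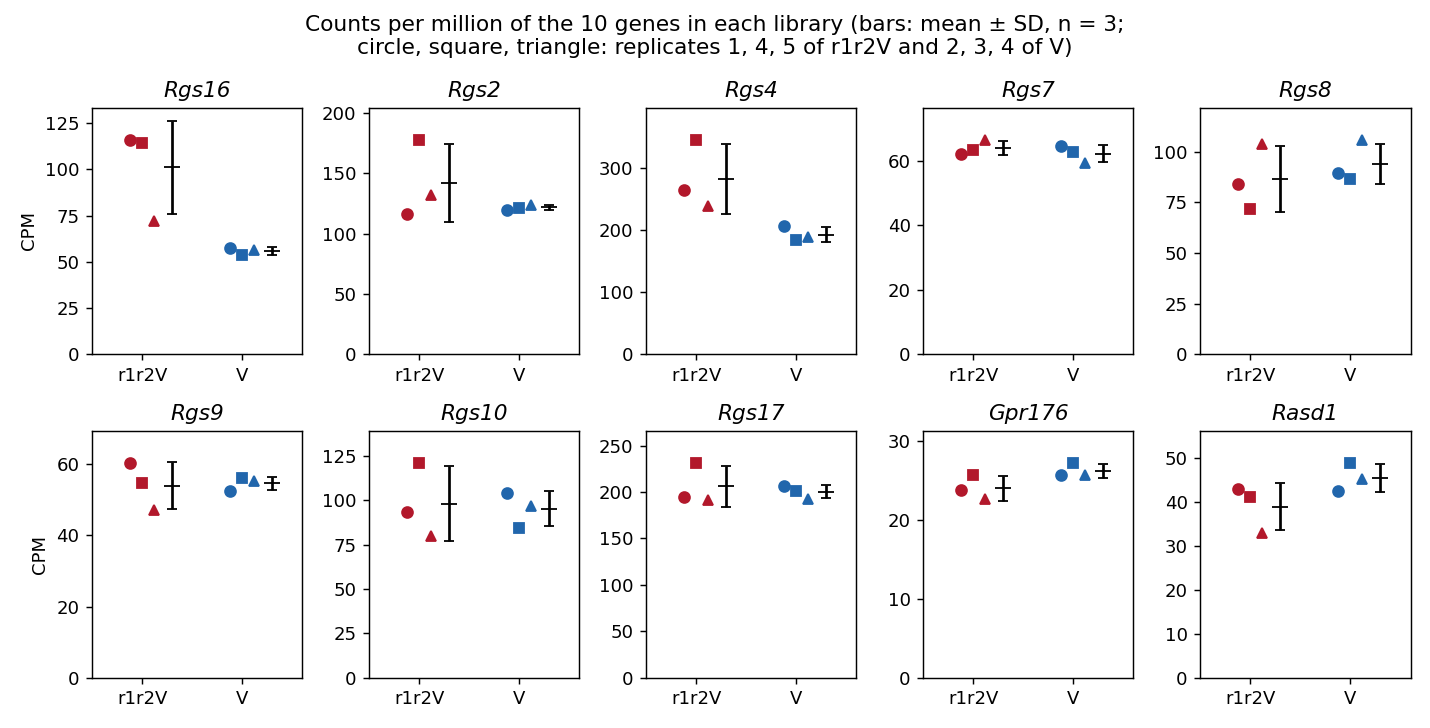
CPM (vertical axis, from 0) of each of the 10 genes in the 3 libraries labelled r1r2V (left, red) and the 3 labelled V (right, blue), with the mean ± SD beside each group. Rgs16 and Rgs4 are the 2 genes whose red points all lie clearly above the blue ones, while the lowest red point of Rgs16, at 71.8 CPM, is replicate 5.

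The 3 V libraries agreed in Rgs16 within little more than counting error, and the libraries labelled r1r2V did not. The coefficient of variation was 24.8% in r1r2V and 3.45% in V. Set against Poisson counting, the chi-square per degree of freedom was 106 in r1r2V and 1.18 in V. Over all 14438 genes tested, the median SD of log2 CPM was 0.135 in r1r2V and 0.0823 in V, and for Rgs16 it was 0.391 and 0.0499. Rgs16 therefore varied more than the median gene among the libraries labelled r1r2V and less than it among those labelled V. That median takes in genes of every level tested, also those with few reads, and was not matched to the level of Rgs16.

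Rgs4 (gene 19736; chr1:169741477-169747642, minus strand) encodes a neuronal RGS protein that acts on Gi, Go and Gq. Its level was 264, 345 and 238 CPM in the libraries labelled r1r2V, against 206, 183 and 188 CPM in those labelled V. All 3 libraries labelled r1r2V lay above all 3 labelled V, with replicate 4 of r1r2V the highest and replicate 5 again the lowest. The means were 282 ± 56.1 CPM under r1r2V and 192 ± 12 CPM under V (SD, n = 3 each), or 1.47-fold (log2 fold change 0.55, standard error 0.121). Over the 6 libraries Rgs4 followed Rgs16 with a Pearson r of 0.918, and with an r of 0.687 after each group was centred on its own mean. After centring, Rgs9 (0.865), Rasd1 (0.833) and Rgs10 (0.737) had higher values than Rgs4, and the other members lower ones, down to -0.754 for Rgs8. These 6 points share the group difference by which Rgs16 was picked, so the value of 0.918 describes that difference as well.

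Rgs2 (gene 19735), whose protein prefers Gq, spread widely among the libraries labelled r1r2V. It had 116, 178 and 132 CPM in the libraries labelled r1r2V, against 120, 121 and 124 CPM in those labelled V. Replicate 1 of r1r2V was below all 3 V libraries and replicates 4 and 5 were above them, so the groups overlapped. The log2 fold change of 0.22 became 0.03 without replicate 4 of r1r2V. In V the coefficient of variation of Rgs2 was 1.68%, the smallest of the 10 genes, and in r1r2V it was 22.7%.

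Rgs8 (gene 67792; chr1:153652959-153697669, plus strand), of the same R4 subfamily as Rgs16, Rgs4 and Rgs2, ends 42.7 kb before the start of Rgs16 on the same strand. It had 84.0, 71.6 and 104 CPM in the libraries labelled r1r2V, against 89.7, 86.8 and 106 CPM in those labelled V. The groups overlapped, with a log2 fold change of -0.12 that became 0.002 without replicate 4 of r1r2V. Its order among the libraries labelled r1r2V was the reverse of that of Rgs4: replicate 4 was the lowest for Rgs8 and the highest for Rgs4, and replicate 5 the highest for Rgs8 and the lowest for Rgs4. Among the tested genes that started within 250 kb of the start of Rgs16, Glul and Npl had log2 fold changes of 0.15 and -0.01 (edgeR's quasi-likelihood test, adjusted p = 0.676 and 0.991). Rgs5, the tested gene that started nearest to Rgs4, had one of -0.01 (adjusted p = 0.987).

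The R7 members Rgs7 and Rgs9 encode RGS proteins that work as dimers with the atypical beta subunit encoded by Gnb5. Rgs7 (gene 24012) had 62.1, 63.4 and 66.6 CPM in the libraries labelled r1r2V, against 64.5, 62.8 and 59.3 CPM in those labelled V. It was the steadiest of the 10 genes under r1r2V, with a coefficient of variation of 3.56% there and 4.30% in V. Rgs9 (gene 19739), best known from striatum and retina, had 60.3, 54.6 and 47.0 CPM under r1r2V, against 52.6, 56.0 and 55.3 CPM under V. The groups overlapped in both genes, with log2 fold changes of 0.04 for Rgs7 and -0.02 for Rgs9. The summed level of 7 markers of striatal neurons was 329, 330 and 264 CPM in the libraries labelled r1r2V and 309, 280 and 283 CPM in those labelled V, and none was at 0.

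Rgs9 is listed with 2 transcripts, and the length that the tables give for it moved between libraries. That length was 3709.64, 3440.89 and 3419.39 bases in the libraries labelled r1r2V, against 3432.78, 3504.96 and 3528.36 bases in those labelled V. The longest was in replicate 1 of r1r2V, replicate 4 lay within the V range and replicate 5 below it. The lengths of Rgs7, Rgs8 and Rgs17, also listed with several transcripts, ran from 2448.56 to 2484.15, from 5472.24 to 5538.81 and from 8123.71 to 8134.15 bases over the 6 libraries.

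Rgs10 (gene 67865) encodes a small RGS protein of microglia and neurons that acts on Gi. It had 93.5, 121 and 79.8 CPM in the libraries labelled r1r2V, against 104, 84.7 and 96.6 CPM in those labelled V. Replicates 4 and 5 of r1r2V lay on either side of the whole V range, and the log2 fold change was 0.04. The summed level of 5 microglia markers was 163, 172 and 189 CPM in the libraries labelled r1r2V and 169, 159 and 166 CPM in those labelled V, and none was at 0. Replicate 5 of r1r2V thus had the most microglia marker RNA and the least Rgs10.

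Rgs17 (gene 56533), also called RGSZ2, encodes an RZ member that acts on Gz and Gi. It had 195, 231 and 191 CPM in the libraries labelled r1r2V, against 206, 201 and 192 CPM in those labelled V. The groups overlapped, with replicate 4 of r1r2V above all others and a log2 fold change of 0.04. Gnaz, which encodes the Gz alpha subunit, had 89.4, 86.2 and 83.6 CPM under r1r2V and 91.2, 90.6 and 90.7 CPM under V (log2 fold change -0.07, adjusted p = 0.777).

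Gpr176 (gene 381413), the receptor that acts through Gz, had 23.8, 25.7 and 22.6 CPM in the libraries labelled r1r2V, against 25.7, 27.2 and 25.7 CPM in those labelled V. The groups met at 25.7 CPM, with the means at 24.0 ± 1.54 CPM under r1r2V and 26.2 ± 0.833 CPM under V (SD, n = 3 each; log2 fold change -0.12, standard error 0.0784). It had the lowest counts of the 10 genes, from 388 to 482 reads a library, where counting error alone was 4.6 to 5.1% of the count. Gpr176 is found at chr2:118277096-118374549, minus strand. Within 10 Mb of its start, 5 genes passed the test: Bub1b fell, and Scg5, Pla2g4e, Adal and Fam227b rose, with log2 fold changes from -2.61 to 4.67 (edgeR's quasi-likelihood test, adjusted p from 0.000196 to 0.0124). Over all genes tested, 0.416% passed. The number of tested genes within that distance is not given here, so nothing is read from the 5. Genes that passed also lay within 10 Mb of other members, such as Fkbp10, which fell, at -8.81 Mb from the start of Rgs9.

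Rasd1 (gene 19416) had 42.9, 41.2 and 32.9 CPM in the libraries labelled r1r2V, against 42.6, 48.9 and 45.3 CPM in those labelled V. Replicate 1 of r1r2V lay just above replicate 2 of V, so the groups overlapped, and replicate 5 of r1r2V was the lowest of all. The means were 39.0 ± 5.36 CPM under r1r2V and 45.6 ± 3.16 CPM under V (SD, n = 3 each), with a log2 fold change of -0.23 (standard error 0.103). That value was -0.12 without replicate 5 of r1r2V. Nos1ap, whose protein links RASD1 to neuronal nitric oxide synthase, differed by 0.02 on the log2 scale (adjusted p = 0.975), and Rasd2, the close relative of Rasd1, by 0.18 (adjusted p = 0.660).

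**Figure D2:**
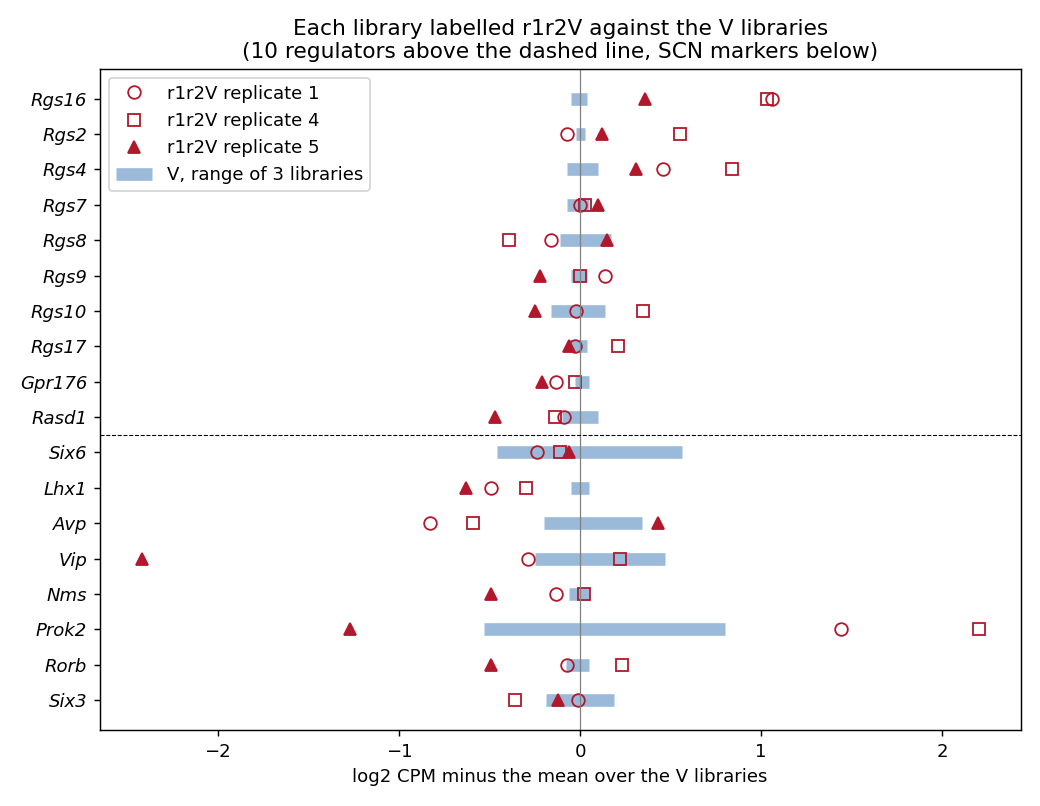
Log2 CPM of each library labelled r1r2V (red symbols, 1 per replicate) minus the mean over the V libraries (blue bars, range of the 3 V libraries), for the 10 genes and, below the dashed line, 8 SCN markers. Replicate 5 of r1r2V (filled triangles) is the lowest red symbol for Rgs16 (0.36), Rgs4 (0.31), Rasd1 (-0.47), Vip (-2.42) and Prok2 (-1.27), and the highest for Rgs8 (0.15) and Avp (0.43).

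The libraries labelled r1r2V differed among themselves both in these genes and in SCN markers. Replicate 5 was the lowest of the 3 for Rgs16, Rgs4, Rgs9, Rgs10, Rgs17, Gpr176 and Rasd1, and among the markers for Lhx1, Vip, Nms, Prok2 and Rorb. It was the highest of the 3 for Rgs7 and Rgs8 and, among the markers, for Six6 and Avp, and its summed SCN marker level of 516 CPM was also the highest of the 3. Relative to the V mean, the mean log2 level of the 8 SCN markers was -0.08, 0.16 and -0.63 in replicates 1, 4 and 5 of r1r2V, and from -0.06 to 0.06 in the V libraries, with Vip (-2.42) and Prok2 (-1.27) the farthest below it in replicate 5. Avp had 160, 190 and 384 CPM in replicates 1, 4 and 5 of r1r2V against 247 to 360 CPM in V. The part of marker levels in the differences of Rgs16 and Rgs4 was not tested. Without replicate 5 of r1r2V the log2 fold changes were 1.04 and 0.66.

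Levels can be set between genes in FPKM, fragments scaled by the authors for gene length and depth. By mean FPKM, Rgs16 held rank 4 of the 10 genes under r1r2V and rank 7 under V. The order under r1r2V was Rgs10 (126), Rgs4 (98.6), Rgs2 (48.6), Rgs16 (44.6), Rgs7 (27.0), Rgs17 and Rasd1 (25.5 each), Rgs8 (16.0), Rgs9 (15.7) and Gpr176 (6.29 FPKM). Under V it was Rgs10 (123), Rgs4 (67.5), Rgs2 (41.8), Rasd1 (29.9), Rgs7 (26.3), Rgs17 (24.9), Rgs16 (24.8), Rgs8 (17.4), Rgs9 (16.1) and Gpr176 (6.88 FPKM). Library ranges of neighbours overlapped under r1r2V for Rgs10 with Rgs4, Rgs2 with Rgs16, Rgs7 with Rgs17, Rgs17 with Rasd1, and Rgs8 with Rgs9. Under V they overlapped for Rgs7 with Rgs17, Rgs17 with Rgs16, and Rgs8 with Rgs9.

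**Figure D3:**
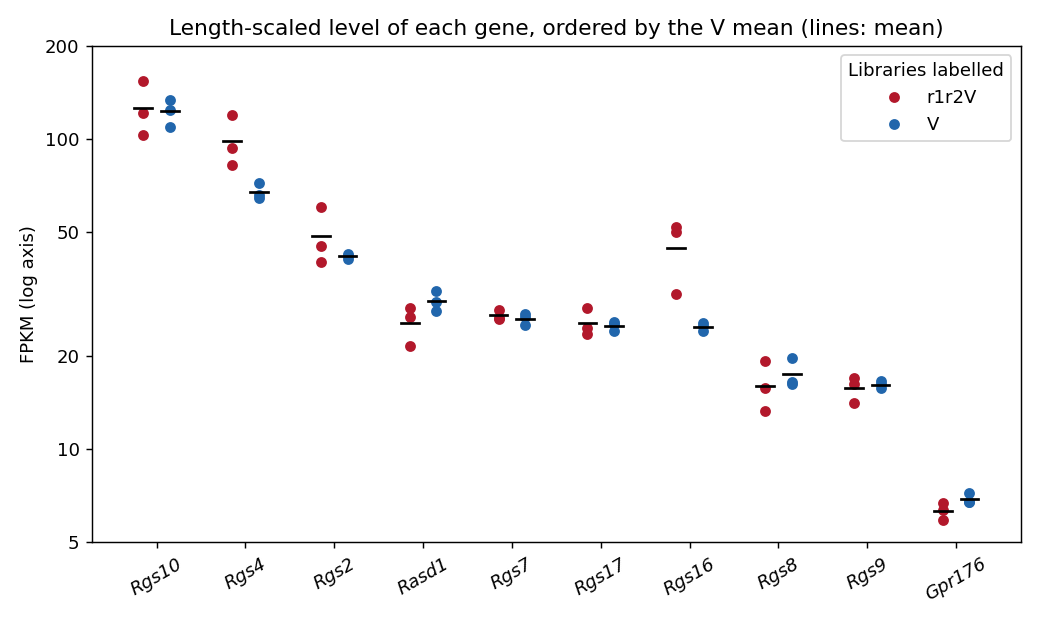
FPKM on a log axis for the 10 genes, ordered by their V mean, with 1 point per library labelled r1r2V (red, left) or V (blue, right) and a line at each mean. Rgs16 lies between Rgs17 and Rgs8 in V, with a mean of 24.8 FPKM, and next to Rgs2 in r1r2V, with 44.6 FPKM.

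Across the 14438 genes tested, 43 rose (0.298%) and 17 fell (0.118%) in the libraries labelled r1r2V, 0.416% together, at a Benjamini-Hochberg adjusted p under 0.05 in edgeR's quasi-likelihood test. None of the 10 genes was among them, and nothing is read from that count because the same contrast helped to choose the list. The lowest adjusted p of the 10 was that of Rgs16, 0.0588. At an unadjusted p under 0.05 there were 2 of the 10, Rgs16 and Rgs4, beside 7.58% of all genes, and nothing is read from that count either. Calls of these 2 depended on the tool and on single libraries: both passed with DESeq2 (0.755% of genes called) and both without replicate 5 of r1r2V (0.461%), Rgs16 alone passed without a filter on low counts (0.374%), and neither passed with limma-voom. Groups that did not overlap were seen upward for Rgs16 and Rgs4, beside 6.87% of all genes, and downward, by less than 0.1 CPM, for Gpr176, beside 7.63%, or 14.5% of all genes in either direction. The median log2 fold change was 0.04 over the 10 genes and 0.01 over all genes.

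The rest of the RGS family was measured by 13 genes, of which 9 had enough counts to be tested. Of these 9, 0 rose, 0 fell and 9 did not pass with edgeR's quasi-likelihood test, with a lowest adjusted p of 0.314, beside 0.416% of all genes called. An unadjusted p under 0.05 was found for 1 (Rgs12), beside 7.58% of all genes. DESeq2 and limma-voom also called none. Rgs12, which encodes a large R12 member that acts on Gi, had 21.6, 24.0 and 22.7 CPM in the libraries labelled r1r2V, against 28.7, 26.1 and 29.9 CPM in those labelled V (log2 fold change -0.31, adjusted p = 0.314). It was the only one of the 9 whose groups did not overlap, beside 14.5% of all genes. Rgs5, a marker of mural cells, had 97.4, 116 and 135 CPM under r1r2V and 117, 117 and 116 CPM under V (log2 fold change -0.01, adjusted p = 0.987). The summed level of 6 other mural markers was 98.0, 118 and 123 CPM in the libraries labelled r1r2V, against 101, 105 and 107 CPM in those labelled V. Vtn made up much of that sum, with 43.8, 61.4 and 65.2 CPM under r1r2V. Vtn and Kcnj8 stood in the same order under r1r2V as Rgs5, and Pdgfrb, Abcc9, Acta2 and Cspg4 did not. Log2 fold changes were 0.15 for Rgs14, 0.11 for Rgs6, 0.09 for Rgs20, -0.005 for Rgs19, -0.06 for Rgs3, -0.13 for Rgs11 and -0.30 for Rgs22 (adjusted p from 0.734 to 0.990). Rgs1, Rgs13, Rgs18 and Rgsl1 were under 1 CPM in every library and were not tested.

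**Figure D4:**
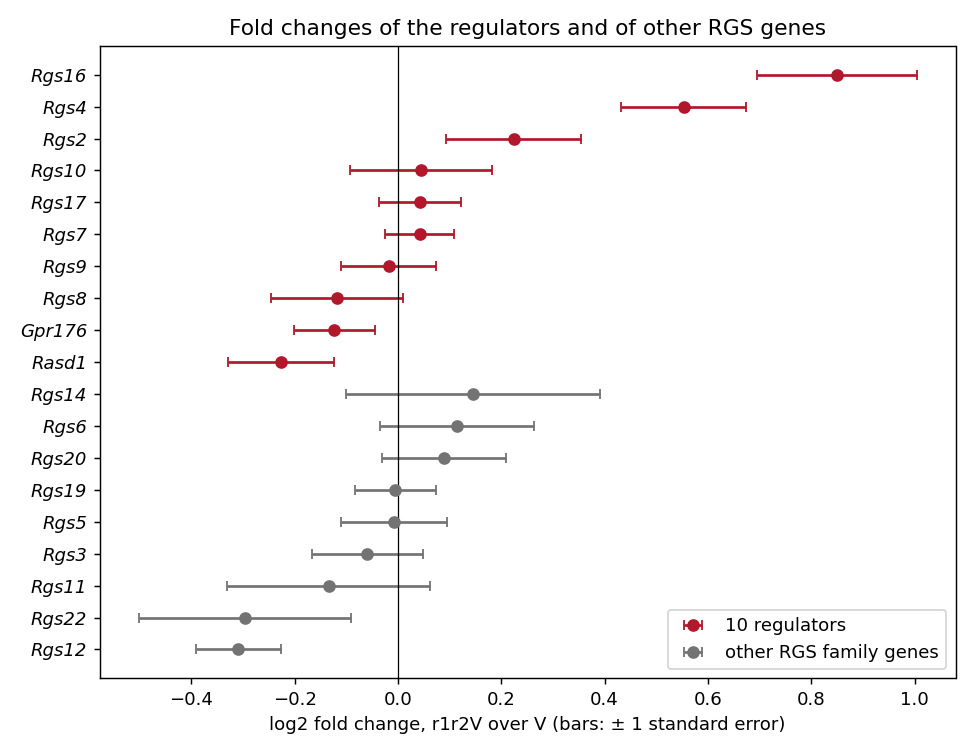
Log2 fold change (r1r2V over V, horizontal axis) with bars of 1 standard error for the 10 genes (red) and the 9 other RGS genes tested (grey). Rgs16 (0.85) and Rgs4 (0.55) stand to the right of all others, and the other genes lie between -0.31 (Rgs12) and 0.22 (Rgs2).

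Genes of the wider G-protein cycle were not called either. Over 7 lists that held no member, other RGS genes included, 65 genes were tested, 0 rose, 0 fell and 65 did not pass (edgeR's quasi-likelihood test, lowest adjusted p = 0.314). As 0.416% of all genes were called, 0 of 65 says little about these genes. DESeq2 and limma-voom called none, beside 0.755% of all genes with DESeq2 and 53 genes in all with limma-voom. Groups did not overlap upward for 1 of the 65 and downward for 10, beside 6.87% and 7.63% of all genes. At an unadjusted p under 0.05 there were 6 of the 65, beside 7.58% of all genes. The median log2 fold change was -0.02, against 0.01 over all genes.

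Among G alpha subunits, 0 of 13 rose and 0 fell. The share called over all genes, 0.416%, stands beside this and the other counts of this paragraph. The inhibitory subunit genes Gnai1, Gnai2 and Gnai3, on whose products RGS16 acts, had log2 fold changes of 0.15, -0.07 and 0.17, and Gnao1, the Go subunit gene, -0.02. Gnaq, of the Gq protein that RGS2 turns off, had 0.03 and Gnas, of the stimulatory Gs, -0.02 (adjusted p from 0.678 to 0.939 over these 6). Of 14 beta and gamma subunit genes 0 rose and 0 fell, with a median of 0.03. Partners of the R7 proteins likewise held 0 called of 4 tested: the log2 fold change was -0.04 for Gnb5, while Rgs7bp, whose product anchors R7 dimers at the membrane, had 0.03 and Gpr158, an orphan receptor that binds them, had -0.08. Gpr179, a related receptor known from the retina, had the largest value of the 4, 0.52 with a standard error of 0.318 (edgeR's quasi-likelihood test, adjusted p = 0.712). Of 8 other regulators of G proteins, 8 receptor kinase and arrestin genes and 9 adenylyl cyclase genes, none rose or fell, with medians of 0.04, -0.01 and -0.07.

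Among the 5 genes whose pattern over the 6 libraries was most like that of Rgs16 were Alpk1, Zkscan3, Cdh19 and Fam208b, by Pearson r of log2 CPM among the 13873 genes that averaged 1 CPM or more. The r of these 4 ran from 0.981 to 0.996 over 6 libraries, Spearman's rho from 0.771 to 0.943, and r after centring each group from 0.921 to 0.987. With 6 points that share the group difference, 183 of the 13873 genes had an r above 0.9. Alpk1, which encodes an innate immune kinase, had 2.90, 2.87 and 2.16 CPM in the libraries labelled r1r2V, against 1.97, 1.86 and 1.84 CPM in those labelled V. None of the 4 passed the test over all genes (edgeR's quasi-likelihood test, adjusted p from 0.168 to 0.643).

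The other 6 genes were found at chr1:143999338-144004149 (Rgs2), chr1:175059076-175492862 (Rgs7), chr11:109225348-109298181 (Rgs9), chr7:128373621-128419506 (Rgs10), chr10:5825663-5922412 (Rgs17) and chr11:59963181-59964944 (Rasd1), each on the minus strand. None of the 10 genes had a near-identical transcript of another gene in the GENCODE annotation of GRCm38. Exons of Rgs16 overlapped those of the antisense gene Gm28513 by 236 bases, exons of Rgs8 those of the antisense gene Gm29529 by 70 bases, and exons of Gpr176 those of Gm29232 on the same strand by 133 bases. The sources used here do not say whether counting used strand, so reads from those stretches cannot be told apart.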

How the data were processed

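SCN RNA of 6 libraries was analysed from 1 table per library. Per the file headers, the authors deposited an expected count, an FPKM and a length per gene. Expected counts are estimated reads, and 9.88% of the deposited values were not whole. FPKM values were scaled by the authors for length and mapped fragments, per the file headers. The deposited length, in bases, is another column, and the sources used here do not say how it was derived. RSEM 1.2.12 and Bowtie2 2.2.5 are named in the submitters' processing notes, as are DESeq2, GATK, Cufflinks 2.2.1, HISAT2 2.0.4 and StringTie 1.0.4, with no roles, and the build mm10. A gene missing from a table was set to 0. Library totals ran from 15729603 to 17780928, and intervals cover counting error only.

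Expected counts were rounded, filtered (filterByExpr, minimum count 10) to 14438 genes and fitted with edgeR 4.0.16 in R 4.3.3 (trimmed mean of M-values, glmQLFit, glmQLFTest), with Benjamini-Hochberg adjustment and a threshold of 0.05. The scripts were tested on simulated data. Alternatives were DESeq2 1.42.0, limma-voom (limma 3.58.1), other scalings and filters, limma on log2(FPKM + 1) and log2(FPKM + 0.1), other thresholds and leaving out each library. Counts of libraries of 1 group differed beyond sampling noise in every pair, and each library was kept as 1 sample. Near-identical transcripts were sought with BLAST+ 2.17.0 (95% identity over 0.5 of the shorter). Adrbk1 and Adrbk2 were matched by synonym to Grk2 and Grk3.

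The members, the lists, the naming rule and the alternatives were chosen with earlier results of these data known. Named are all 10 members, all other RGS genes, a preset set of G-protein genes, called list members and the 5 genes most like Rgs16, of which 1 is not reported here. Chromosomal neighbours of the members were singled out after values were seen.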

Additional observations from a re-analysis of the deposited data

How the results depend on the processing

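No paired analysis was possible because replicate 4 is the single number found in both groups. Of the 10 genes, 2 passed with DESeq2 and 2 without r1r2V replicate 5 (Rgs16 and Rgs4 each time), 1 without a filter on low counts and 1 at a threshold of 0.1 (Rgs16 both times), and 0 otherwise. Without 1 library, 0 to 2 of them passed. Of the 65 listed genes of the G-protein cycle that are no members, 0 passed under any alternative. Over all genes, 109 passed with DESeq2, 38 at a threshold of 0.01 and from 26 to 67 without 1 library, with 27, 28 and 26 without V replicates 2, 3 and 4. The log2 fold change of Rgs16 ran from 0.74 to 1.04 without 1 library and from 0.79 to 0.85 under the other settings, and its adjusted p from 2.94e-07 to 0.279 over all of them. For the other 9 genes, all 126 alternative values lay within 1 SD between replicates of the main value. Leaving out 1 of 3 libraries can hardly move a value further than that, and the other settings refit the same libraries. Nothing about stability is therefore read from it. Rgs2, for one, ran from 0.03 to 0.35 without 1 library. Rgs8 (-0.28 to 0.002), Rgs9 (-0.11 to 0.07), Rgs10 (-0.14 to 0.17) and Rgs17 (-0.05 to 0.09) changed sign without 1 library. The 5 genes most like Rgs16 were the same 5 at a prior count of 0.5, and Rgs16 held rank 7 in V by CPM as well. Counting error limits Gpr176 most, at 4.6 to 5.1% a library. For none of these changes was the cause tested.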
